A study of Mus musculus with 8 samples.

Results

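The genes followed here mark granule cells of the dentate gyrus and were measured by RNA-seq in the hippocampus of Pyk2 mutant and wild-type mice. They are Prox1, C1ql2, C1ql3, Dsp, Npnt, Trpc6, Stxbp6, Lct, Tdo2 and Calb1. The set was chosen by name, with earlier results of these data known. Genes were found by symbol in the control tables and through the Entrez identifier in the mutant tables. All 10 were among the 17678 genes that could be matched between the tables. The 8 libraries, all from C57BL/6 hippocampus, form 4 groups of 2: mice with a CRISPR knockout of Pyk2 (KO), mice carrying the CRISPR-made Y402F substitution of its autophosphorylation site (Y402F), and 2 separate wild-type groups, one for the knockout (KO controls) and one for the substitution (Y402F controls). The labels give no age, sex, number of animals per library or extent of the dissection. The libraries of each mutant group differed in sex pattern, so they did not come from the same mouse. For the controls this is not stated, and there the p-values may cover only technical spread between libraries.

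Granule cells are the principal neurons of the dentate gyrus. They receive the input of the entorhinal cortex and send unmyelinated axons, the mossy fibres, to the pyramidal cells of CA3, which in turn project to CA1. Because granule cells lie in one part of the hippocampus, the level of their marker genes in a bulk library depends on how much dentate gyrus the piece of tissue held as well as on the RNA of each cell, and in bulk RNA fewer cells of a type and less RNA per cell cannot be told apart. Several of the 10 genes are also expressed elsewhere: Prox1 in some interneurons, Calb1 in CA1 pyramidal cells and interneurons, C1ql3 and Stxbp6 in neocortex, and Dsp in the meninges.

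The genotype check came from Ptk2b, which encodes Pyk2. It was at 55.8 and 68.4 scaled FPKM in KO, at 352 and 394 in Y402F, and between 307 and 322 in the 4 control libraries. Scaled FPKM means fragments per kilobase of transcript, normalised to sequencing depth, divided by 1 factor per library. The mutant libraries held 5756180 to 6017219 expected counts, and the depth of the controls is unknown. The mutant and the control tables were made by different processing, so when mutants are set against controls the effects of processing and genotype cannot be told apart. Xist and the Y-linked genes gave a female pattern in replicate 1 and a male one in replicate 2 of both mutants, a female pattern in both KO controls and a male one in both Y402F controls. Xist was at 25.4 or more in replicate 1 of KO and Y402F, at 3.94 and 3.23 in KO controls and at 0.294 or less elsewhere, and the Y-linked Ddx3y was at 4.72 to 5.75 in the male-pattern libraries and at 0.0692 or less in the others. KO control replicate 2 also had low values of the Y-linked Eif2s3y (0.684) and Kdm5d (0.269), which replicate 1 had at 0. Ttr, the leading transcript of choroid plexus, was at 653 to 1030 in Y402F replicate 2 and the Y402F controls and at 1.19 to 10.2 in the other libraries.

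The sequences in front of the transcription starts of these genes fell into different kinds. RefSeq promoters on GRCm38.p6 were found for 9 of the 10 genes, with 11 start sites in all, and the 250 bases before each start were searched for CG, the dinucleotide that is dense in CpG islands (the same on both strands). Dsp and Npnt, whose levels differed most between the wild-type pairs, and Lct, which did not follow them, are shown, 5′ to 3′ on the strand of the gene, with each CG in capitals.
Dsp (chr13:38151044-38151293, plus strand): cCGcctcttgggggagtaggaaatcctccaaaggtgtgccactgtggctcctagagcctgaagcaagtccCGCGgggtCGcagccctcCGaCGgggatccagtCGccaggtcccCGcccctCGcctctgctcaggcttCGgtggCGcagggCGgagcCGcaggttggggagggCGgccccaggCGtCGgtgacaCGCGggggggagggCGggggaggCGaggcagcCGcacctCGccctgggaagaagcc
Npnt (chr3:132950292-132950541, minus strand): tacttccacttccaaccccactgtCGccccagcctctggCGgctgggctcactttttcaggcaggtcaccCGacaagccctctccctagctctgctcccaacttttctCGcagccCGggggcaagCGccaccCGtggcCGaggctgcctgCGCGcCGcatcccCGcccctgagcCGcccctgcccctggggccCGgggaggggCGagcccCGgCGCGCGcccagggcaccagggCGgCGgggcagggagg
Lct (chr1:128328319-128328568, minus strand): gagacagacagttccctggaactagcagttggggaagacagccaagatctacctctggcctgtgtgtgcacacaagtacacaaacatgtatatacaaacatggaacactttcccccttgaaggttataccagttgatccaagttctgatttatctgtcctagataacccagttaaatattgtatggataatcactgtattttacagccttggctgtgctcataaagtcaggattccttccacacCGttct
The Dsp window holds 22 CG, the Npnt window 21 and the Lct window 1. Of 32851 promoter windows of the same length, 17.9% hold 20 or more, 37.8% hold 3 or fewer, and the median is 6. The window of C1ql3 holds 23, those of the Prox1 starts 20 and 11, the second of Npnt 23, that of C1ql2 20, those of Trpc6 and Stxbp6 12 each, and that of Tdo2 3. The E-box CANNTG, read on both strands, was in 6 of the 11 windows, against 66.2% of all windows. These matches describe the sequence and do not show a site in use.

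All 10 genes were detected in every library, at 1.67 scaled FPKM or more, and all passed the filter of a mean of 1 FPKM. On this per-length scale C1ql2, C1ql3, Calb1 and Stxbp6 had the highest levels, with group means from 18.7 to 61.4, and Tdo2 the lowest, with group means from 2.22 to 2.91. In the mutant libraries the 10 genes rested on between 15 and 1040 expected counts each. The plot of the 10 genes by library shows both values of each group.

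**Figure D1:**
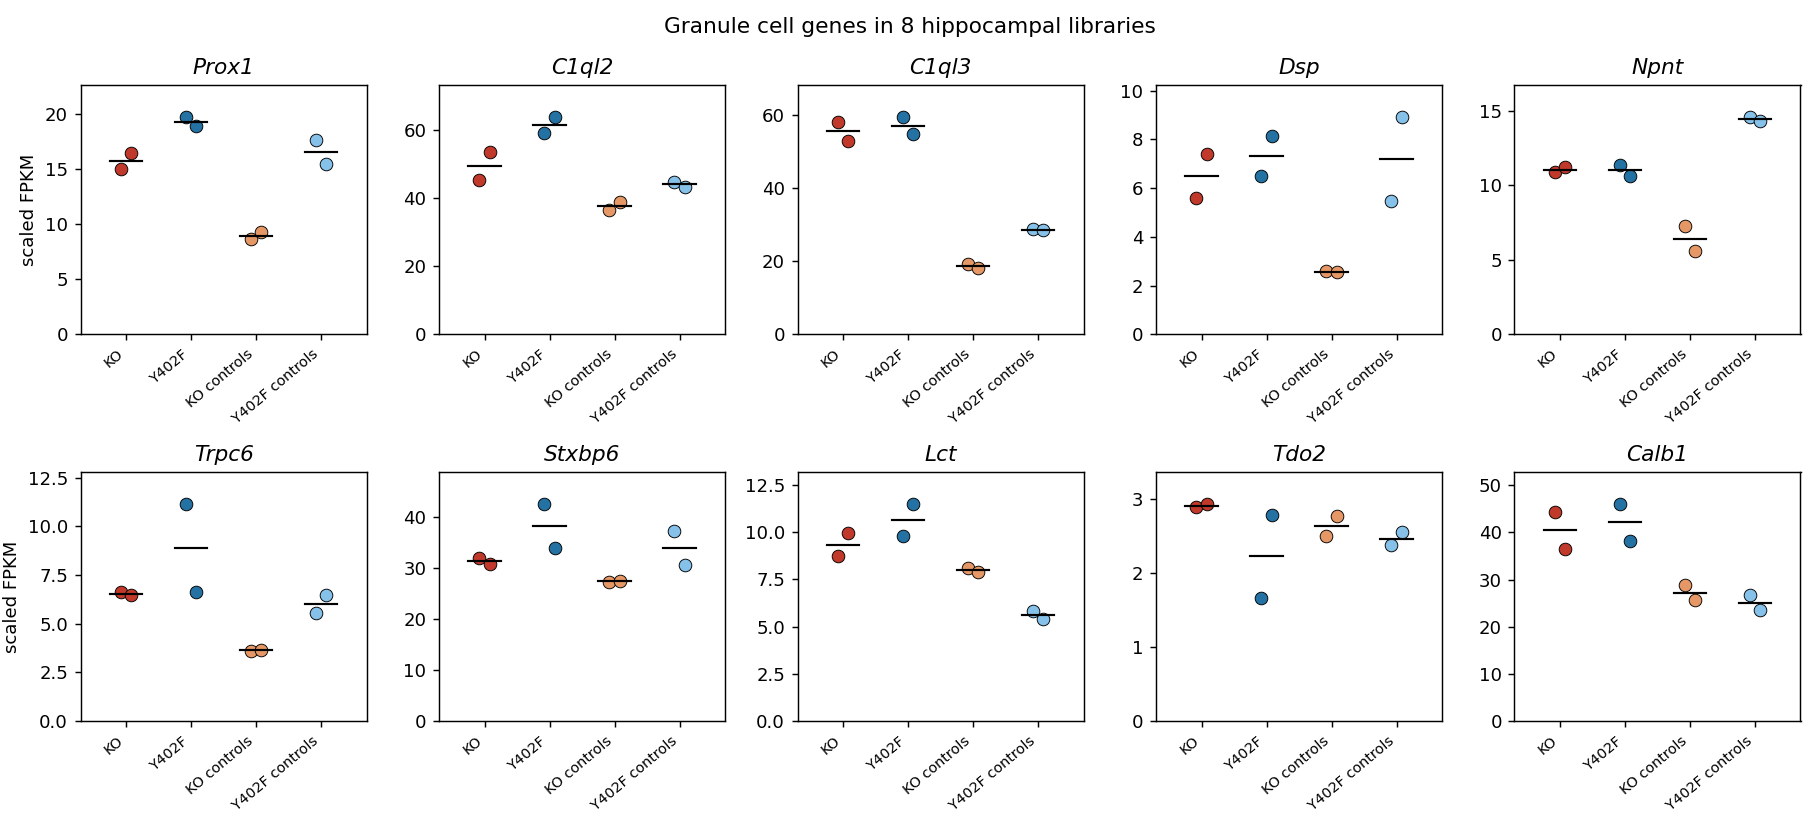
Scaled FPKM (y axis, starting at 0) of the 10 granule cell genes in the 4 groups; each point is 1 library and each line the mean of 2. For Prox1, C1ql2, C1ql3, Dsp, Npnt, Trpc6 and Stxbp6 the 2 KO controls are the lowest libraries, while for Lct the Y402F controls are lowest.

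Prox1 encodes the homeodomain transcription factor that specifies and maintains granule cell identity (Entrez 19130; chromosome 1, 190118035 to 190170714 on GRCm38). Its level was 15.0 and 16.5 scaled FPKM in KO, 19.7 and 18.9 in Y402F, 8.64 and 9.28 in KO controls, and 17.7 and 15.4 in Y402F controls. The KO controls stood apart as the lowest pair, and the other 6 libraries lay between 15.0 and 19.7.

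C1ql2 and C1ql3 encode secreted proteins of the C1q family that granule cells release from mossy fibre terminals, where they help to recruit kainate receptors. C1ql2 (Entrez 226359; chromosome 1, 120340582 to 120343174) was at 45.4 and 53.6 in KO, 59.1 and 63.8 in Y402F, 36.4 and 39.0 in KO controls, and 44.8 and 43.4 in Y402F controls. C1ql3 (Entrez 227580; chromosome 2, 13003457 to 13011806) was at 58.0 and 53.0 in KO, 59.4 and 54.7 in Y402F, 19.2 and 18.2 in KO controls, and 28.9 and 28.4 in Y402F controls. For C1ql3 all 4 mutant libraries lay far above all 4 controls, and the pairs of the controls did not overlap either. How reads that fit more than 1 gene of this family were divided is not stated for the tables.

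Dsp encodes desmoplakin, which links cell junctions to intermediate filaments (Entrez 109620; chromosome 13, 38151294 to 38198577). It was at 5.59 and 7.40 in KO, 6.51 and 8.13 in Y402F, 2.59 and 2.56 in KO controls, and 5.49 and 8.90 in Y402F controls. Npnt encodes nephronectin, a matrix ligand of integrin alpha 8 (Entrez 114249; chromosome 3, 132881745 to 132950291). It was at 10.9 and 11.2 in KO, 11.4 and 10.6 in Y402F, 7.25 and 5.58 in KO controls, and 14.6 and 14.3 in Y402F controls. Both genes were lowest in the KO controls, and Npnt was highest in the Y402F controls, with the mutants in between and alike.

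Trpc6 encodes a receptor-operated cation channel (Entrez 22068; chromosome 9, 8544142 to 8680741). It was at 6.62 and 6.47 in KO, 11.1 and 6.64 in Y402F, 3.60 and 3.66 in KO controls, and 5.57 and 6.50 in Y402F controls. Stxbp6 encodes amisyn, a syntaxin-binding regulator of exocytosis (Entrez 217517; chromosome 12, 44852484 to 45074709). It was at 32.0 and 30.9 in KO, 42.6 and 34.0 in Y402F, 27.3 and 27.5 in KO controls, and 37.4 and 30.7 in Y402F controls. In both genes Y402F replicate 1 was the highest library and the KO controls were the lowest.

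Lct encodes lactase, a disaccharidase known from the intestine whose transcript also marks granule cells in the mouse (Entrez 226413; chromosome 1, 128284756 to 128328318). It was at 8.71 and 9.93 in KO, 9.78 and 11.5 in Y402F, 8.09 and 7.89 in KO controls, and 5.84 and 5.38 in Y402F controls. Tdo2 encodes tryptophan dioxygenase, the first enzyme of the kynurenine pathway (Entrez 56720; chromosome 3, 81957090 to 81976202). It was at 2.89 and 2.93 in KO, 1.67 and 2.78 in Y402F, 2.50 and 2.76 in KO controls, and 2.37 and 2.56 in Y402F controls. Lct thus had the reverse order of the controls seen for Prox1, and the ranges of Tdo2 overlapped between all groups but KO, whose libraries were the highest.

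Calb1 encodes calbindin, a cytosolic calcium buffer of mature granule cells (Entrez 12307; chromosome 4, 15881264 to 15908064). It was at 44.3 and 36.6 in KO, 46.0 and 38.2 in Y402F, 28.8 and 25.6 in KO controls, and 26.7 and 23.5 in Y402F controls. The ranges overlapped between the mutants and between the controls, and every mutant library was above every control.

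The wild-type pairs of the lines, whose tables were made the same way, were compared to see how far these genes differed without a mutation of Pyk2. In KO controls Npnt, Dsp, Prox1 and C1ql3 fell to 44.5, 35.8, 54.1 and 65.2% of the mean level of Y402F controls. The log2 differences on log2(scaled FPKM + 1) were -1.07 for Npnt (SE 0.15, limma adjusted p = 0.0117), -1.17 for Dsp (SE 0.24, 0.0283), -0.82 for Prox1 (SE 0.13, 0.0156) and -0.59 for C1ql3 (SE 0.10, 0.0192). Of the 10 genes 4 were thus called lower and 0 higher, while 3.16% of all 12954 genes tested were called lower and 4.82% higher (7.98% in either direction). The median difference of the 10 was -0.44, against -0.02 over all genes. In 7 of the 10 genes both KO controls were below both Y402F controls, against 30.9% of all genes. Since the 10 were chosen with earlier results of these data known, the shares of all genes give no test of the set.

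The other 6 genes did not pass the test. Trpc6 differed by -0.60 (95% interval -1.11 to -0.09, limma adjusted p = 0.127), Stxbp6 by -0.30 (-0.62 to 0.02) and C1ql2 by -0.22 (-0.48 to 0.03). Lct differed in the other direction, by 0.44 (0.10 to 0.79, limma adjusted p = 0.103), and was the 1 gene of the 10 with both KO controls above both Y402F controls, against 28.1% of all genes. Calb1 differed by 0.11 (-0.22 to 0.44) and Tdo2 by 0.07 (-0.42 to 0.56). The 10 genes did not all differ in the same direction, and the plot of differences shows the intervals side by side.

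**Figure D2:**
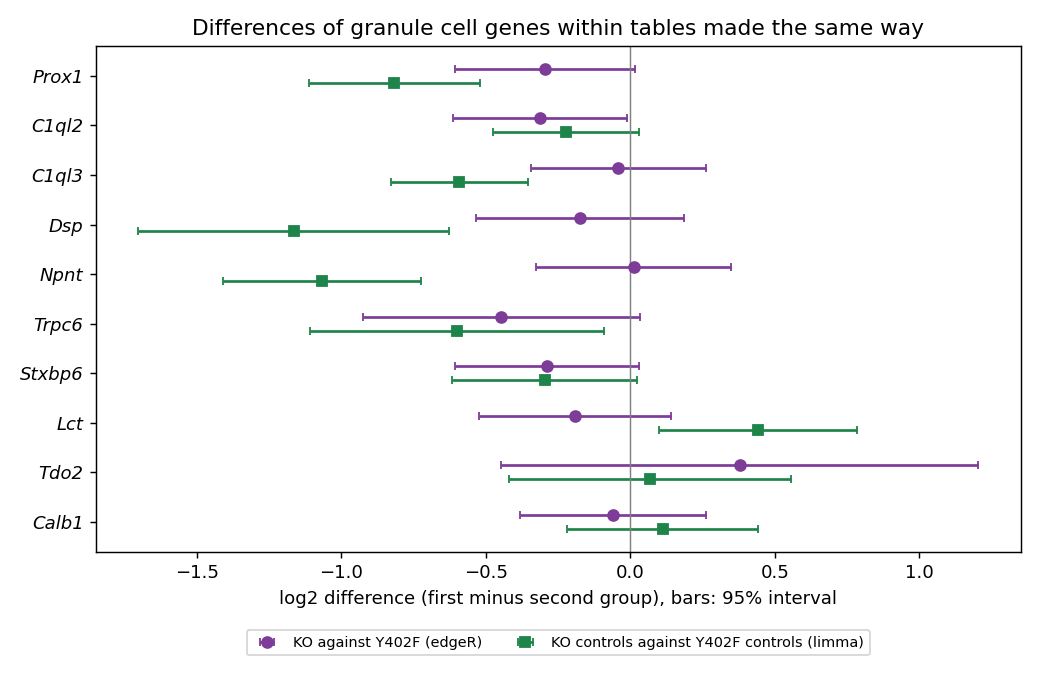
Log2 differences (x axis) of the 10 genes between KO and Y402F (edgeR, circles) and between KO controls and Y402F controls (limma, squares); bars are 95% intervals. The wild-type intervals of Prox1, C1ql3, Dsp and Npnt lie far below 0, while those of KO against Y402F reach or come near 0 for every gene.

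The calls between the wild-type pairs rest on the spread shared with the other libraries. With only the 4 wild-type libraries in the fit 0 of the 10 genes were called, with limma adjusted p-values of 0.0585 (C1ql3), 0.0653 (Npnt), 0.0669 (Prox1) and 0.0993 (Dsp). With KO control replicate 1 left out 1 gene was called, and with KO control replicate 2, Y402F control replicate 1 or Y402F control replicate 2 left out 2 were. Npnt was called in each of these 4 fits. The bounds that Cufflinks gives for the estimate of each library did not overlap for Npnt, where those of KO controls ended at 9.32 and 7.23 and those of Y402F controls began at 11.3 and 11.0 scaled FPKM. For Dsp they overlapped, ending at 3.50 and 3.76 and beginning at 3.64 and 5.61.

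Sex patterns and line cannot be told apart within the wild-type libraries, since both KO controls were female and both Y402F controls male in pattern. Both mutant groups contained a female-pattern and a male-pattern library, and the former had 91.0% (KO) and 104% (Y402F) of the Prox1 level of the male-pattern one, 97.2 and 107% of Npnt, 109 and 108% of C1ql3, and 75.6 and 80.0% of Dsp. Choroid plexus genes moved with the same contrast. Of 7 tested genes of 8 listed, 5 were called lower in KO controls, against 3.16% of all genes. The 8 genes together summed to 48.2 and 49.0 scaled FPKM in KO controls and 1140 and 1170 in Y402F controls. Their part in the differences of the granule cell genes between the wild-type pairs was not tested. Within Y402F this sum was 39.6 in replicate 1 and 751 in replicate 2, which also differ in sex pattern, and replicate 1 had 104% of the Prox1, 108% of the C1ql3, 107% of the Npnt and 80.0% of the Dsp level of replicate 2. Dsp was also lower in replicate 1 of KO, at 75.6% of replicate 2, and there both libraries had low choroid plexus sums. Between the Y402F libraries sex pattern and choroid plexus RNA cannot be told apart, with 1 library on each side. Leptomeningeal genes, of a tissue that also expresses Dsp, had 0 of 8 calls, against 7.98% of all genes. They had 4 positive and 4 negative differences and a median of 0.03. They summed to 85.6 and 89.9 in KO controls and 112 and 115 in Y402F controls. Much of that gap lay in Dcn, with means of 32.1 in KO controls and 54.8 in Y402F controls.

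Other genes enriched in granule cells gave mixed results between the wild-type pairs. Of 14 genes 3 were lower in KO controls and 1 was higher, with a median of -0.41. Of all genes 3.16% were called lower and 4.82% higher in this comparison. Lower were Tiam1, a Rac exchange factor (-1.37, SE 0.19, limma adjusted p = 0.0115), Dock10, an exchange factor for Cdc42 and Rac (-0.69, 0.0236), and Smad3, which transmits signals of the TGF-beta receptor (-0.56, 0.0278). A list of granule cell lineage genes, named the immature granule list here, had 3 of 7 tested members lower. They were the basic helix-loop-helix genes Neurod1 (-0.71, limma adjusted p = 0.0452), Neurod2 (-0.47, 0.0206) and Bhlhe22 (-0.56, 0.0198). Doublecortin, the classic marker of newborn neurons, differed by -0.45 without passing the test (Dcx, 0.305). In KO controls the mean was 47.8 scaled FPKM for Neurod2, 24.2 for Bhlhe22 and 1.33 for Dcx. Whether the 3 calls stem from immature or mature granule cells or from other neurons was not tested.

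At the mossy fibre synapse the median was -0.11. In KO controls 2 of 14 genes were lower and 0 higher, against 3.16 and 4.82% of all genes. They were Adgrb3, which encodes the adhesion receptor BAI3 that binds C1q-like proteins (-0.53, SE 0.11, limma adjusted p = 0.0333), and Neto1, an auxiliary subunit of kainate receptors (-0.53, 0.0438). The kainate receptor genes Grik2 (-0.54, 0.227), Grik4 (0.28, 0.348) and Grik5 (-0.08, 0.749) were not called, nor was the vesicular zinc transporter gene Slc30a3 (0.14, 0.472). Among relatives and partners of the 10 genes, 1 of 17 tested members was called, against 7.98% of all genes. It was the calcium-binding protein gene Pvalb, which was higher in KO controls (0.50, limma adjusted p = 0.0264). C1ql1, Calb2 and the channel genes Trpc1, Trpc4 and Trpc5 were not called. The desmosomal partner gene Jup was at 18.9 and 27.6 in KO controls and 15.1 and 11.7 in Y402F controls, opposite to Dsp (0.74, 0.0561).

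Markers of the pyramidal cell fields did not follow the granule cell genes. In CA1 0 of 8 and in CA3 0 of 7 genes were called between the wild-type pairs, with medians of 0.06 and -0.04. By limma 0 of the 8 CA1 genes and 2 of the 7 CA3 genes had an unadjusted p under 0.05, Bok (0.60) and Elavl2 (0.59), both higher in KO controls. Of the 10 granule cell genes 6 did, and of all genes 27.1%. In CA2 1 of 6 was called, Stard5, which was higher in KO controls (1.11, limma adjusted p = 0.0115). The summed level of the CA1 genes was 262 and 265 scaled FPKM in KO controls and 275 and 265 in Y402F controls. Interneuron genes had 2 of 9 members higher (Sst, 0.35, and Cck, 0.45) and oligodendrocyte genes 2 of 6 higher (Mbp, 0.75, and Cnp, 0.79). Neocortical genes had 2 of 8 lower (Rasgrf2, -0.62, and Etv1, -0.71). Over all genes 4.82% were called higher and 3.16% lower. The plot of gene lists in the wild-type pairs shows each gene.

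**Figure D3:**
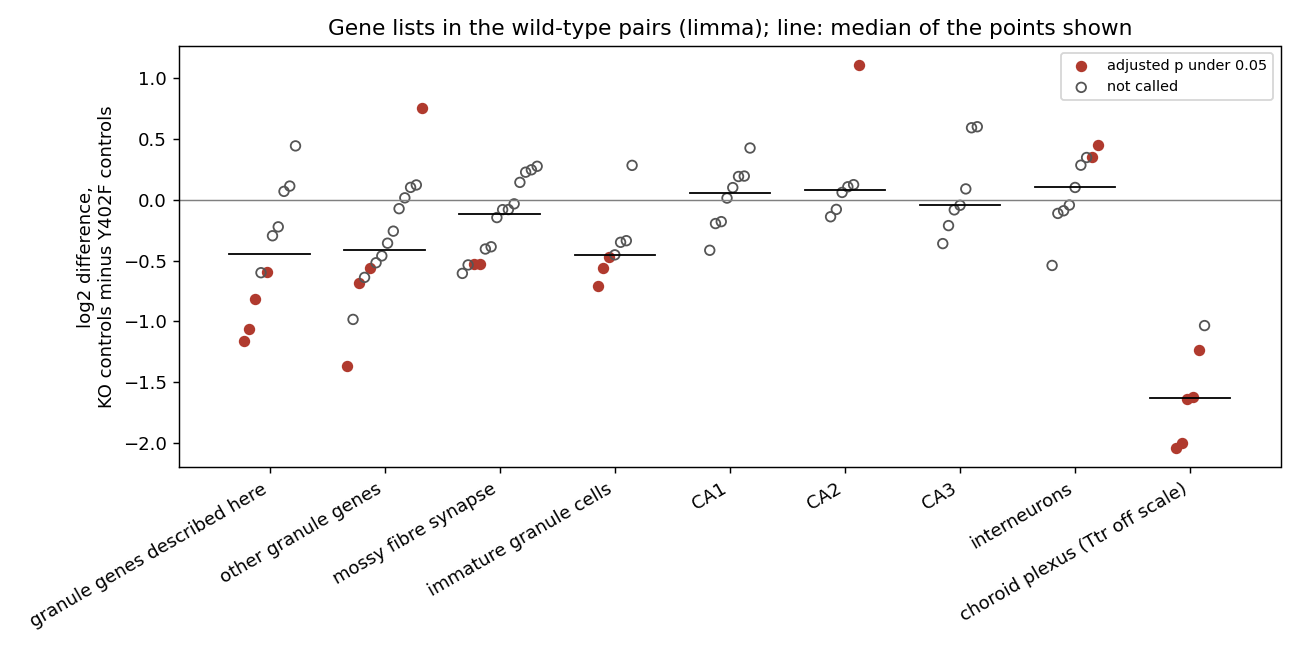
Log2 difference between KO controls and Y402F controls (y axis, limma) of each tested gene in 9 lists; filled points were called, open points were not, and lines are medians (Ttr of the choroid plexus list is not drawn). Granule cell, other granule and immature granule genes have medians between -0.45 and -0.41, and CA1, CA2 and CA3 genes between -0.04 and 0.08.

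An index was taken as the mean log2(scaled FPKM + 1) of the 10 genes minus that of 15 genes of CA1 and CA3, with no test. It depends on the dentate share of the tissue and on the RNA of each cell, which it cannot tell apart. Between mutants and controls it also cannot be told apart from the processing. It was -0.39 and -0.44 in KO, -0.28 and -0.33 in Y402F, -1.05 and -1.02 in KO controls, and -0.59 and -0.56 in Y402F controls. The order from low to high was KO controls, Y402F controls, KO and Y402F, and no groups overlapped. Group means were -1.04 ± 0.02, -0.58 ± 0.03, -0.41 ± 0.04 and -0.30 ± 0.03 in that order (SD, n = 2). The mean of the CA1 and CA3 genes alone ranged only from 4.42 to 4.53 over the 8 libraries, so the index followed the granule cell genes. Single genes of that reference were not all steady. In KO against its controls 2 of 8 CA1 genes were called higher, and of 7 CA3 genes 1 higher and 1 lower. Of all genes 16.6% were called higher and 20.9% lower there. The same index with the 14 other granule cell genes differed by -0.40 between the wild-type pairs and by -0.10 between KO and Y402F, against -0.46 and -0.11 with the 10. Between mutants and controls it did not behave like that of the 10: it differed by 0.06 in KO and by -0.25 in Y402F, against 0.63 and 0.27.

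**Figure D4:**
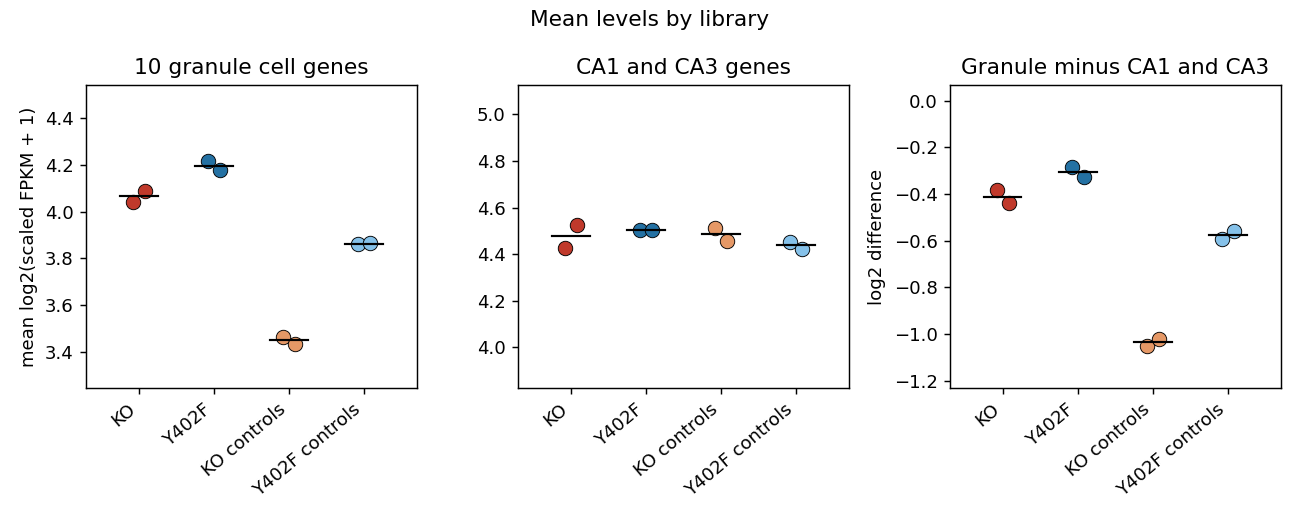
Mean log2(scaled FPKM + 1) of the 10 granule cell genes (left), of 15 CA1 and CA3 genes (middle), and their difference (right); each point is 1 library, lines are means of 2, and all panels span the same range of log2 units. The left and right panels separate the groups, with KO controls lowest, and the middle panel does not.

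KO and Y402F, whose tables hold counts of the same kind, differ in whether the protein is lost or only its autophosphorylated tyrosine is replaced. Prox1 was at 81.7% and C1ql2 at 80.6% of their Y402F level in KO, and none of the 10 genes was called. The log2 differences were -0.29 for Prox1 (SE 0.15, 95% interval -0.61 to 0.02) and -0.31 for C1ql2 (SE 0.14, -0.61 to -0.01), with edgeR adjusted p-values of 1.0. Trpc6 differed by -0.45 (-0.93 to 0.03) and Stxbp6 by -0.29 (-0.61 to 0.03). In these 4 genes both KO libraries were below both Y402F libraries, against 12.8% of all genes, although Trpc6 did so only by 6.62 against 6.64 scaled FPKM. In Tdo2 both KO libraries were above both Y402F libraries, also against 12.8% of all genes.

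The remaining genes lay closer to 0 or were less precise. Lct differed by -0.19 (95% interval -0.52 to 0.14), Dsp by -0.17 (-0.54 to 0.19), Calb1 by -0.06 (-0.38 to 0.26), C1ql3 by -0.04 (-0.34 to 0.26) and Npnt by 0.01 (-0.33 to 0.35). Tdo2, with 15 to 27 expected counts, differed by 0.38, and at this depth its interval ran from -0.45 to 1.21. Over the 10 genes 8 differences were negative, the median was -0.18 against -0.01 over all genes, and 1 had an unadjusted p under 0.05, as had 1.92% of all genes. By edgeR 0 of the 10 genes were called, against 0.00772% of 12950 genes, and DESeq2 and limma called 0 as well. Without Y402F replicate 1, the library with the highest Trpc6 and Stxbp6, the median of the 10 was -0.07.

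Among the wider lists, 0 members were called between KO and Y402F by edgeR. All 7 tested genes of the immature granule list had a negative difference, with a median of -0.16 and Neurod1 at -0.28. Of the 14 other granule cell genes 10 were negative (median -0.14). CA1 and CA3 genes had medians of 0.01 and -0.01, mossy fibre synapse genes -0.05 and interneuron genes 0.10. Choroid plexus genes, high in Y402F replicate 2 only, had a median of -1.92.

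In KO against its own controls all 10 genes were higher in both KO libraries. By limma 7 were called higher: C1ql3, Prox1, Npnt, Dsp, Calb1, C1ql2 and Trpc6. The KO libraries were mixed in sex pattern and their controls female, and the part of sex pattern was not tested. C1ql3 was at 2.97 times its control level (log2 difference 1.52, SE 0.10, limma adjusted p = 1.94e-05), Prox1 at 1.76 times (0.75, SE 0.13, 0.00258), Npnt at 1.72 times (0.71, SE 0.15, 0.00694) and Dsp at 2.52 times (1.06, SE 0.24, 0.00875). Calb1 (0.55, 0.0179), C1ql2 (0.38, 0.0272) and Trpc6 (0.70, 0.0367) followed. The Trpc6 call was lost with each of the 4 libraries left out in turn, without scaling and without a filter (limma adjusted p from 0.0655 to 0.142). The C1ql2 call was lost without scaling, without the trend, with only the groups compared and without KO replicate 2, KO control replicate 1 or KO control replicate 2 (0.0576 to 0.140). Calb1 was lost without scaling, KO replicate 1 or KO control replicate 2 (0.0553 to 0.120), and Dsp without KO replicate 2 (0.0696). The calls of Prox1, C1ql3 and Npnt held in all 12 alternative fits of this comparison. Stxbp6 (0.19, 0.316), Lct (0.20, 0.331) and Tdo2 (0.11, 0.724) were not called. In this comparison 16.6% of all genes were called higher and 20.9% lower (37.6% in either direction), 35.7% had both KO libraries above both controls and 35.3% both below. With KO replicate 2 or KO control replicate 2 left out 4 of the 10 were called.

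In Y402F against its controls C1ql3 rose to 1.99 times (0.97, SE 0.10, limma adjusted p = 2.33e-04), Lct to 1.89 times (0.81, SE 0.15, 0.00423), Calb1 to 1.68 times (0.72, SE 0.14, 0.00629) and C1ql2 to 1.39 times (0.47, SE 0.11, 0.0135). These 4 were called higher and 0 lower, against 13.0 and 19.3% of all genes (32.3% in either direction). The C1ql2 call was lost without scaling (limma adjusted p = 0.0546), without Y402F replicate 2 (0.0698) and without Y402F control replicate 2 (0.0673). Prox1 (0.21, 0.240), Dsp (0.05, 0.895), Trpc6 (0.46, 0.151), Stxbp6 (0.16, 0.403) and Tdo2 (-0.13, 0.681) were not called. Npnt was at 76.2% of its controls (-0.36, SE 0.15, limma adjusted p = 0.0980), with both Y402F libraries below both controls, as in 34.1% of all genes. In 6 of the 10 genes the pairs were separated upwards, with both Y402F libraries above both controls, against 34.5% of all genes. The Y402F libraries were mixed in sex pattern and their controls male, and the part of sex pattern was not tested.

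Other granule cell genes went both ways in these comparisons. In KO against its controls 3 of 14 were higher and 2 lower by limma, against 16.6 and 20.9% of all genes. The higher genes were Rfx3, Maml2 and Dock10 (0.91, 0.73 and 0.65), and Smad3 was among the lower ones (-0.57). In Y402F against its controls 0 were higher and 2 lower, Smad3 (-0.97) and Tiam1 (-0.85), against 13.0 and 19.3% of all genes. The same shares of all genes apply to the list counts that follow. Of 7 tested genes of the immature granule list Neurod1, Neurod2 and Bhlhe22 were higher in KO (0.74, 0.65 and 0.70), and Neurod2 in Y402F (0.32). Of 14 mossy fibre synapse genes 2 were higher and 1 lower in KO, and 3 were higher and 2 lower in Y402F: Neto1 was lower in both mutants (-0.88 and -1.22), and Gpr158, a receptor of the mossy fibre synapse, was higher in both (0.92 and 0.49). Lrrtm4 was higher in KO (0.58), and in Y402F Grik4 (0.64) and Slc30a3 (0.60) were higher and Adgrb3 lower (-0.39). Genes of other cell types were also called in the same comparisons, and their part in the values of the granule cell genes was not tested. Oligodendrocyte genes had 3 of 6 lower in KO (Mobp, -1.40, Mbp, -0.57, and Mag, -0.50) and 2 higher and 2 lower in Y402F. Leptomeningeal genes had 3 of 8 lower in KO (Fmod, -1.33, Igf2, -1.32, and Dcn, -0.72) and 2 lower in Y402F, and choroid plexus genes 0 of 7 called in KO and 4 lower in Y402F.

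Some genes differed widely between the mutant and the control tables in both lines. Map3k15, a kinase gene of CA2, was at 11.2 to 13.5 scaled FPKM in the 4 mutant libraries and at 0.15 to 0.37 in the 4 controls, with log2 differences of 3.44 and 3.42 in the KO and Y402F lines. C1ql3, C1ql2 and Calb1 were also higher in the mutants of both lines. The part of the processing in these 3 differences cannot be told apart from that of the mutations. Without scaling, which moved the median of all genes to -0.12 in both lines, 4 of the 10 genes were called higher in KO against its controls, and in Y402F 3 were called higher and 1, Npnt, lower (-0.50, limma adjusted p = 0.0333). Over all genes the split of higher and lower calls moved from 2154 and 2712 to 1397 and 3320 without scaling and to 2914 and 2208 with quantile normalisation in KO, and from 1682 and 2501 to 985 and 3125 and to 2713 and 2147 in Y402F.

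In the difference of the mutant effects a processing effect common to both lines cancels. Sex pattern does not cancel, since both mutant groups were mixed, the KO controls female and the Y402F controls male. Nor does choroid plexus RNA, low in KO controls and high in Y402F controls, and the part of either was not tested. By limma 0 of the 10 genes were called, against 0.0309% of all genes. An unadjusted limma p under 0.05 was found for 5 of the 10 and 13.0% of all genes. Npnt differed by 1.07 (SE 0.21, limma adjusted p = 0.137): in KO it was above its controls and in Y402F below. Dsp differed by 1.01 (SE 0.33, 0.281), C1ql3 by 0.55 (SE 0.15, 0.209) and Prox1 by 0.54 (SE 0.18, 0.292), and Lct by -0.61 (SE 0.21, 0.296). For each of Npnt, Dsp, C1ql3, Prox1 and Lct the controls differed more from each other than the mutants did. For Npnt KO against Y402F gave 0.01 and KO controls against Y402F controls -1.07. In the same order the values were -0.17 and -1.17 for Dsp, -0.04 and -0.59 for C1ql3, -0.29 and -0.82 for Prox1, and -0.19 and 0.44 for Lct. Trpc6 (0.25), Tdo2 (0.23), Stxbp6 (0.03), C1ql2 (-0.09) and Calb1 (-0.17) lay closer to 0.

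Genes outside all lists were searched for levels that followed the mean of the 10 within the 4 mutant and within the 4 control libraries. The search covered 9034 genes with a mean of 5 FPKM or more, after centring within each of these sets. Centring removes any step between mutants and controls. The likeness, Pearson's r over the 8 libraries, was 0.993 for Rcor3, a corepressor of the CoREST family, 0.992 for Lrp11 and for Mrtfb, a coactivator of serum response factor, 0.988 for Camk1d, a calmodulin-dependent kinase gene, and 0.987 for Ryk, a Wnt receptor gene. Camk1d was at 42.4 and 43.0 scaled FPKM in KO, 47.2 and 44.3 in Y402F, 28.2 and 27.1 in KO controls, and 34.6 and 35.5 in Y402F controls. These values describe likeness over few libraries that share processing and tissue pieces, and 325 genes reached 0.9.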

How the data were processed

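Hippocampal RNA of 8 libraries in 4 groups of 2 was analysed from deposited tables. The mutant tables deposited by the authors list genes by Entrez identifier, with length, expected count and FPKM. Control tables, as deposited, hold FPKM with a lower and an upper bound for each Ensembl gene, in the layout of Cufflinks, and no count. Per the submitters' processing notes, all libraries used build mm9 with Bowtie 1 and HISAT, and the controls Cufflinks; for the program that made the expected counts, the sources used here give no name. The gene positions of the control tables lie on GRCm38, since the start or end of 99.8% of 17676 genes is also in GENCODE M21. Between 81.1 and 81.7% of the nonzero expected counts, which per the file headers are estimates, were whole within 0.005.

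Of 18022 genes in the mutant tables, 17593 were matched to the controls by symbol and 85 by the Entrez table of GENCODE. Each library's FPKM was divided by a median-of-ratios factor from 11443 genes that reached 1 FPKM throughout. Tests were run on genes whose mean was 1 FPKM or more. KO against Y402F used the quasi-likelihood test of edgeR 4.0.16 with TMM scaling, after rounding the expected counts; DESeq2 1.42.0 was an alternative. All other comparisons used limma-trend (limma 3.58.1) for log2(scaled FPKM + 1) of 8 libraries in 4 groups, which understates changes of low genes. P-values are two-sided and Benjamini-Hochberg adjusted over all genes tested, and genes were called under 0.05. Alternatives were other pseudocounts, filters and scalings, no trend, fewer groups, a replicate block and each library left out. The software was R 4.3.3 and Python 3.11.15, with matplotlib 3.10.9, numpy 2.4.6 and pandas 2.3.3.

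The 10 genes and all lists were chosen with earlier results of these data known. The rule names all 10 genes, list genes that were called and the 2 of each list with the smallest p, and the 5 genes most like the mean of the 10; other genes, such as Dcx, the kainate receptor genes and the channel genes, were named for their role after their values were seen. C1ql4, Kmo and Reln had no match and were not used here. Some list genes are counted but not reported here by name.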

Additional observations from a re-analysis of the deposited data

How the results depend on the processing

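Of 365 log2 differences of the 10 genes under other settings with all libraries kept, 349 kept their direction and side of the threshold, 14 lost and 1 gained a call, and 1 turned: Dsp in Y402F against its controls, at -0.085 without scaling. The number of the 10 genes called moved from 7 to 4 in KO against KO controls without scaling, and between the wild-type pairs from 4 to 2 without the trend and to 0 with only the groups compared. Leaving out 1 library gave 4 to 5 calls in KO against KO controls (4 without KO replicate 2 or KO control replicate 2), 1 to 2 between the wild-type pairs and 3 to 4 in Y402F against its controls. Over all genes, KO against Y402F had 1 call, 4 with a replicate block, 2 with DESeq2, 2 with RLE factors, 5 with limma and 16 to 34 with 1 library left out. The wild-type pairs had 1034 calls, 513 without a filter, 170 without the trend, 325 with only their groups and 169 to 272 with 1 library left out. KO against KO controls had 4866 calls and 3086 to 3574 with 1 library left out. The difference of effects had 4 calls, 7 without a filter, 2 at a mean of 5 FPKM and 6 to 15 with 1 library left out.

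With 1 library left out, differences near 0 turned. In KO against Y402F they ranged from -0.12 to 0.039 for C1ql3, -0.37 to 0.0064 for Dsp, -0.031 to 0.068 for Npnt and -0.21 to 0.088 for Calb1. In Y402F against its controls they ranged from -0.26 to 0.35 for Dsp and -0.38 to 0.13 for Tdo2. In the difference of effects they ranged from -0.20 to 0.032 for C1ql2, -0.087 to 0.58 for Trpc6, -0.13 to 0.19 for Stxbp6 and -0.020 to 0.48 for Tdo2.

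With the 10 genes or 5 of them, the index difference kept its direction under the settings given here; with the 14 other granule cell genes it turned in Y402F against its controls (-0.25). Between the wild-type pairs it was -0.46, -0.52 at a pseudocount of 0.1, -0.39 with Prox1, C1ql2, Dsp, Lct and Tdo2 alone, -0.43 against CA1 and -0.50 against CA3. In KO against KO controls these values were 0.63, 0.69, 0.51, 0.49 and 0.78. In Y402F against its controls it was 0.27, 0.22 with the 5 genes, 0.18 against CA1 and 0.38 against CA3. In the difference of effects it was 0.35, 0.41 at a pseudocount of 0.1, 0.29 with the 5 genes, 0.31 against CA1 and 0.40 against CA3. The cause of these changes was not tested. The replicate block changed no call of the 10 genes; in KO against Y402F it put 4 of them (Prox1, C1ql2, Trpc6 and Stxbp6) and 4.73% of all genes under an unadjusted p of 0.05, against 1 and 1.92% without it. Deviations of same-numbered libraries correlated at 0.21 between KO and Y402F and between -0.03 and 0.05 for the other 5 pairs of groups. The labels do not say that a number marks a shared batch. In both mutant groups the replicate number went with the sex pattern, so in KO against Y402F the block cannot be told apart from sex pattern. Fits with 1 library left out take the spread of the single remaining library from the other groups.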
